A study of Mus musculus with 6 samples.

Results

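The 32 genes described here make, take up, move and sense cholesterol, and they were followed in mouse neural stem cells with and without a hairpin against Mina53 (gene symbol Riox2). They were chosen by name from the 25996 genes of the deposited table: 9 enzymes from acetyl-CoA to squalene and its side branch, 10 enzymes from squalene to cholesterol, 5 genes of sterol sensing, 3 of sterol transport and storage, and the 2 liver X receptors with 3 of their targets. Within them, 21 genes are textbook targets of the transcription factor SREBP2, and 3 are targets of the liver X receptors that send cholesterol out of the cell or limit its uptake (Abca1, Abcg1 and Mylip). All 32 were above the floor for testing, a mean of 1 scaled count. Total RNA was sequenced from 6 libraries of neural stem cells, all labelled with the treatment "proliferation". The 3 shControl libraries carry the genotype label WT and a control hairpin, and the 3 shMina53 libraries carry a Mina53 knockdown. The design has 1 knockdown condition and no rescue, so an effect of the hairpin itself and the loss of Riox2 cannot be told apart. Nothing in the labels says that the 3 libraries of a group came from separate cultures or animals, so the p-values cover only how far these samples spread, and that spread may be technical.

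Cells make cholesterol from acetyl-CoA through mevalonate, isoprenoid diphosphates, squalene and lanosterol. When sterols are scarce in the endoplasmic reticulum, the escort protein SCAP carries SREBP2 to the Golgi, where proteases free its transcription factor domain. That factor then switches on the enzymes of the whole pathway together with its own gene. When sterols are plentiful, INSIG proteins hold SCAP and SREBP2 back, and oxysterols activate the liver X receptors (LXRs), which switch on export pumps such as ABCA1. In the brain, cholesterol is made locally, because lipoproteins of the blood do not cross the blood-brain barrier.

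Values are scaled counts, the authors' read counts divided by 1 factor per library. Fold changes are differences of log2(scaled count + 1), shMina53 over shControl, with their standard error (SE) and 95% interval, and a gene passed when its two-sided limma p, adjusted over 21500 genes, was under 0.05. Libraries held 13753857 to 16811085 reads. Riox2 itself went from 290.4, 333 and 307 scaled counts in shControl 1, 2 and 3 to 121, 125 and 121 in the shMina53 libraries, 39.4% of the control (limma adjusted p = 9.1e-05). The library shControl 3 stood apart in how its values moved with transcript length. Its log2 level fell by 0.21 per doubling of exon length relative to the mean library, whereas the slopes of the other 5 libraries lay between -0.04 and 0.10. Fold changes that moved by over 1.5 times without it, and those of Idi1, Fdft1 and Abca1, are also given without it.

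Of the 32 genes, 10 fell, 1 rose and 21 did not pass the limma test. Among all genes tested, 8.26% passed: 4.47% in the lower direction and 3.79% in the higher direction, and among genes with a mean of at least 50 scaled counts 7.56% and 5.74%. The 10 that fell were Acat2, Hmgcs1, Pmvk, Mvd, Idi1, Fdft1, Lss, Insig1, Insig2 and Stard4, and the 1 that rose was Abca1. In 19 genes every shMina53 library lay under every shControl library, against 14.1% of all genes tested. In 2 genes, Abca1 and Srebf1, every shMina53 library lay above every shControl library, against 14.9% of all genes. The median log2 fold change was -0.31 over the 32 genes and 0.02 over all genes tested. No synthesis enzyme was higher by limma, by edgeR or at an unadjusted limma p under 0.05 (0 in each case).

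**Figure D1:**
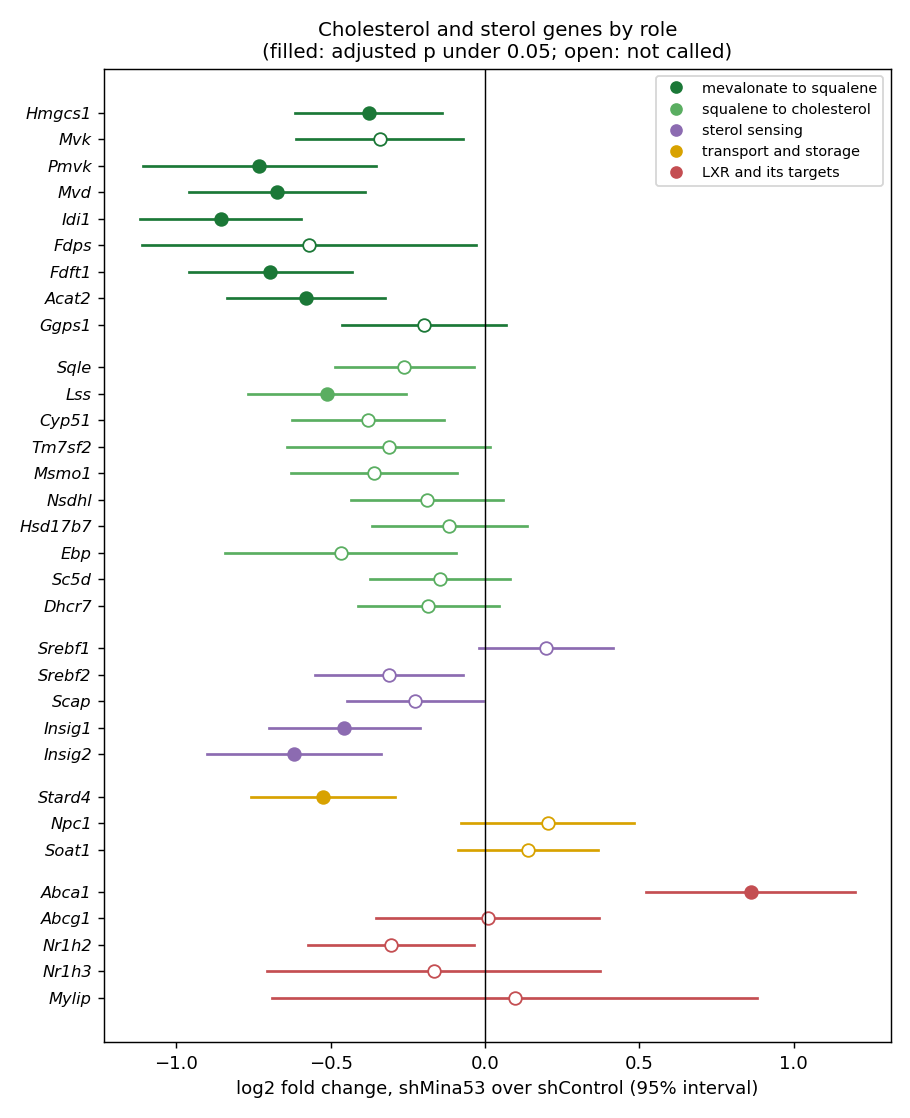
Log2 fold change of shMina53 over shControl on the log2(scaled count + 1) scale (x axis) for the 32 genes (y axis), grouped by role, with 95% intervals from limma and 3 libraries per group. Filled points passed at an adjusted p under 0.05: 10 lie left of 0 and 1, Abca1, lies right of it at 0.86, and all 19 enzymes of the 2 synthesis groups lie left of 0.

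Of the early enzymes, from acetyl-CoA to squalene, 6 of 9 fell, and the median log2 fold change was -0.58. Among all genes tested 4.47% passed lower, and 7.56% among those with a mean of at least 50 scaled counts. Idi1, on chromosome 13 (8885501 to 8892451, plus strand), encodes isopentenyl diphosphate isomerase, which interconverts the pathway's isoprene building blocks. Its scaled counts were 1546, 1306 and 1834 in shControl 1, 2 and 3, against 852, 847 and 863 in shMina53 1, 2 and 3. The groups were far apart, the shMina53 libraries were nearly equal, and the knockdown mean was 54.7% of the control mean. The log2 fold change was -0.86 (SE 0.124; 95% interval -1.12 to -0.60; limma adjusted p = 0.000615), the largest fall among the 32 genes. Without shControl 3 it was -0.73.

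Fdft1, on chromosome 14 (63145150 to 63179578, minus strand), encodes squalene synthase, the step that commits isoprenoids to sterols. It was at 2810 (shControl 1), 2564 (shControl 2) and 3624 (shControl 3) scaled counts against 1936, 1712 and 1855 in the shMina53 libraries. The groups did not overlap, and shControl 3 was the highest library. The fall was -0.70 on the log2 scale (SE 0.126; limma adjusted p = 0.00317), and -0.55 without shControl 3. The 3′ end of Fdft1 shares 774 exon bases with Ctsb on the other strand, and use of strand in the counting is not given in the sources used here. Ctsb, a lysosomal protease gene, was at 6034 ± 674 scaled counts in shControl and 6421 ± 220.1 in shMina53 (SD, n = 3) and did not pass. Cyp51, Ggps1, Npc1 and Srebf1 share shorter stretches with Akap9, Arid4b, Rmc1 and Rai1 on the other strand, and Tm7sf2 shares one with Vps51 on the same strand. These are the partners whose mean was at least 0.1 times the member's own, and 12 of the 32 genes share exon bases with some other gene.

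Mvd, on chromosome 8 (122433601 to 122443422, minus strand), encodes mevalonate diphosphate decarboxylase. Its scaled counts were 1065, 1102 and 1205 in shControl against 860.4, 703 and 576 in shMina53, with shMina53 3 the lowest (log2 fold change -0.67, SE 0.135, limma adjusted p = 0.00604). Pmvk encodes phosphomevalonate kinase, the step before it. Its values of 430.0, 435 and 524 in shControl against 343, 314 and 198 in shMina53 gave -0.73 (SE 0.179, limma adjusted p = 0.0202). In both genes the groups did not overlap, and in both shMina53 3 was the lowest library. Mvk, the mevalonate kinase gene, was also separated (668, 628 and 698 against 610.02, 524 and 449.6) but did not pass (log2 fold change -0.34, limma adjusted p = 0.113).

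Acat2, a cytosolic thiolase gene whose product feeds acetoacetyl-CoA into the pathway, was at 1580.3, 1389.7 and 1821 scaled counts in shControl against 1181, 1012 and 1003 in shMina53. The groups were separated, with a log2 fold change of -0.58 (SE 0.121, limma adjusted p = 0.00784). Hmgcs1, on chromosome 13 (119690379 to 119708260, plus strand), encodes the cytosolic HMG-CoA synthase and had the highest level per exon length of the 32 genes. Its scaled counts were 14905, 14031 and 17603 in shControl against 12621, 11145 and 11937 in shMina53. Its groups were separated too, but its fall of -0.38 (SE 0.112) lay near the threshold, with a limma adjusted p of 0.0471 and an edgeR adjusted p of 0.0541.

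Fdps and Ggps1, which make farnesyl and geranylgeranyl diphosphate, overlapped between groups and did not pass. Fdps was listed at only 80.1, 71.5 and 54.5 scaled counts in shControl against 59.9, 35.3 and 44.1 in shMina53 (log2 fold change -0.57, SE 0.257, limma adjusted p = 0.187). Its level of 16.3 scaled counts per kb of exon in shControl was the second lowest of the 32 genes, below all other synthesis enzymes. The low level has to be read beside its copies. Fdps shares 1124 exon bases on the same strand with Gm43738, a gene not analysed here. Gm3571 on chromosome 10 is annotated as a processed pseudogene and matches Fdps transcripts at 98.9% identity over 1062 aligned bases. It was listed at 217, 225 and 291 scaled counts in shControl against 133, 110.0 and 94.9 in shMina53. Its groups did not overlap, and its log2 fold change was -1.11 (SE 0.178, limma adjusted p = 0.00135). Gm3571 was picked after its values were seen. How reads that match both were assigned is not given in the sources used here, so the level and the change of Fdps are uncertain. The sum over Fdps and its 3 counted pseudogene copies was 319.6, 329.8 and 389 in shControl against 214, 173 and 165 in shMina53, 53.2% of the control mean. Idi1, Acat2 and Fdft1 also have near-identical copies (Gm13502, Acat3 and Gm6781), which held means of 21.5, 17.0 and 3.45 scaled counts over the 6 libraries. Transcripts of Acat2 also match 445 bases of Tcp1, a chaperonin gene, at 98.7% identity. Tcp1 was at 5204 scaled counts on average, above Acat2, and did not pass (log2 fold change -0.09), so the level of Acat2 may hold shared reads.

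**Figure D2:**
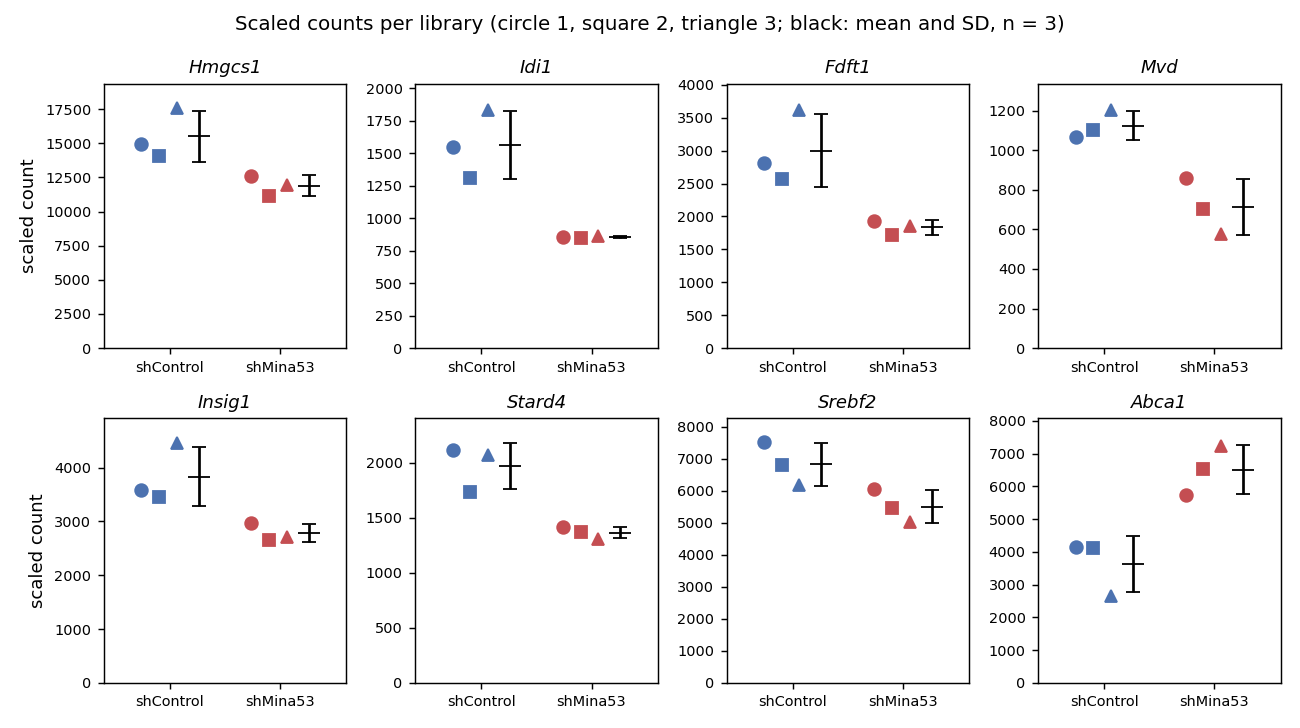
Scaled counts (y axis, from 0) of 8 of the genes in each library, shControl in blue and shMina53 in red, with the mean and SD of the 3 libraries in black. Idi1, Fdft1, Mvd, Hmgcs1, Insig1, Stard4 and Srebf2 lie lower in all shMina53 libraries, and Abca1 lies higher in all of them, with shControl 3 the lowest library for Abca1 (2654) and the highest for Fdft1 (3624).

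Promoter letters were read for the members with an entry in the RefSeq table used here (GRCm38.p6), 26 of 32, in the 250 bases before each RefSeq start. The letters CCAAT, read on both strands and bound by NF-Y, a partner of SREBPs at sterol-responsive promoters, were present for 16 of 17 SREBP2 targets, against 37.5% of 27025 genes. The letters GGGCGG of the partner Sp1 were present for 15 of 17, against 35.4%. The letters TCACNCCAC of a sterol regulatory element were present for 1 of 17, Hmgcs1, against 1.22%. Of the 8 fallen members with a promoter, 7 held CCAAT, and so did all 10 SREBP2 targets with a promoter that did not pass. CCAAT was present for 21 of all 26 members with a promoter, so it was not limited to the SREBP2 targets. The 27025 genes are all those with a promoter entry and were not matched to the members in expression. A match is a description of letters, not a shown binding site, and genes with several starts had more bases searched. The upstream sequences of 3 enzymes of the same stretch of the pathway are shown because each holds several CCAAT boxes. Each is 5′ to 3′ on the gene's strand, with CCAAT or its complement ATTGG and the sterol element in capitals.
Hmgcs1 (chr13:119690101-119690350, plus strand): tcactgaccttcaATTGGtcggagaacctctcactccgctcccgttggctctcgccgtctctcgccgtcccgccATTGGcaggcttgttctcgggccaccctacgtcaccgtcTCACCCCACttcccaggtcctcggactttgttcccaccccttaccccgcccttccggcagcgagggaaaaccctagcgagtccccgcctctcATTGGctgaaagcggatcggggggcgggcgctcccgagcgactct
Mvd (chr8:122443423-122443672, minus strand): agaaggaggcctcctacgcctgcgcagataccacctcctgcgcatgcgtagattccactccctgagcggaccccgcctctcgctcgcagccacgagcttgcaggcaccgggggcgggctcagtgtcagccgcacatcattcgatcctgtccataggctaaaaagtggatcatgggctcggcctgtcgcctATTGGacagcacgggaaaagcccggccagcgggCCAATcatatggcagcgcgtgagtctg
Mvk (chr5:114444061-114444268, plus strand): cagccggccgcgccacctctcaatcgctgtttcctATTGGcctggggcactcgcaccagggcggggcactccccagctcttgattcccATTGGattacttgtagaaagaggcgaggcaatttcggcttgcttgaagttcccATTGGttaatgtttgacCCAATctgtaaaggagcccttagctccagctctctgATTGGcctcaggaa
The sterol element of Hmgcs1 lies 137 to 129 bases before its start, between ATTGG matches at 176 to 172 and 45 to 41. Mvk holds 5 CCAAT matches, and its gene did not pass, whereas Mvd holds 2 and fell.

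Of the later enzymes, from squalene to cholesterol, 1 of 10 fell (Lss), 6 were separated in the lower direction, and the 10 fold changes were negative with a median of -0.29. The 1 of 10 that fell is near the 7.56% that passed lower among genes with a mean of at least 50 scaled counts. Of all genes tested 14.1% were separated in the lower direction. At an unadjusted limma p under 0.05, 5 of the 10 were lower, where 12.2% of all genes tested were. Lss, on chromosome 10 (76531588 to 76557138, plus strand), encodes lanosterol synthase, which closes the sterol ring. It was at 2504, 2067 and 1844 scaled counts in shControl against 1611, 1428 and 1431 in shMina53 (log2 fold change -0.51, SE 0.121, limma adjusted p = 0.0160). Here shControl 3 was the lowest control library, unlike in most enzymes, and the groups still did not overlap.

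Sqle encodes squalene epoxidase, a rate-controlling step of the late pathway. Its values of 3923, 3728 and 4316 against 3548, 3169.8 and 3258 were separated but did not pass (log2 fold change -0.26, 95% interval -0.49 to -0.04, limma adjusted p = 0.143). Cyp51, the lanosterol demethylase gene, was at 5595, 4941 and 6179 against 4789, 3941 and 4107 and missed the threshold narrowly (log2 fold change -0.38, SE 0.116, limma adjusted p = 0.0531). Both are cases where the groups did not overlap and the test was not passed. Cyp51 passed when shControl 3 was left out and when the length trend was removed (limma adjusted p = 0.0217 for the second). Sqle passed when the length trend was removed (limma adjusted p = 0.0476), but not when shControl 3 was left out.

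Msmo1, which acts on the methyl groups at carbon 4 of the sterol, was separated as well, at 4211, 3871 and 5517 against 3577, 3213 and 3706 (log2 fold change -0.36, limma adjusted p = 0.0930). Without shControl 3, its highest library, the fold change was -0.21. Ebp, the sterol isomerase gene, was separated too (199, 236 and 234 against 187, 182 and 122), with a log2 fold change of -0.47 and a limma adjusted p of 0.115. Dhcr7, which makes cholesterol from 7-dehydrocholesterol, was separated by a small margin (2866 the lowest control, 2861 the highest knockdown; log2 fold change -0.18, limma adjusted p = 0.322). Nsdhl, Hsd17b7, Sc5d and Tm7sf2 encode further enzymes of the demethylation, desaturation and reduction steps. Their groups overlapped, and their log2 fold changes of -0.19, -0.12, -0.15 and -0.31 had limma adjusted p-values from 0.235 to 0.604. Without shControl 3 the fold changes of Hsd17b7, Sc5d and Tm7sf2 were -0.048, -0.079 and -0.20. Together the 19 synthesis enzymes took 0.310%, 0.287% and 0.341% of all reads in shControl 1, 2 and 3, against 0.256%, 0.227% and 0.235% in shMina53 1, 2 and 3. The means were 0.313% ± 0.0271 and 0.239% ± 0.0148 (SD, n = 3), and the groups did not overlap.

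Among the 5 genes of sterol sensing, both INSIG genes fell and the others did not pass. Insig1, itself an SREBP2 target and the better known of the ER anchors of SCAP, was at 3578, 3453 and 4456 scaled counts in shControl against 2968, 2662 and 2702 in shMina53. The groups were separated, with a log2 fold change of -0.46 (SE 0.116, limma adjusted p = 0.0237). Insig2, the second anchor, was at 674, 624 and 848 against 419.6, 501 and 468, also separated (-0.62, SE 0.134, limma adjusted p = 0.00933). In both genes shControl 3 was the highest of the 6 libraries.

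Srebf2, which encodes SREBP2, was at 7525, 6800.02 and 6186 scaled counts in shControl against 6056, 5451 and 5017 in shMina53. The groups were separated by a narrow margin, and the test was not passed (log2 fold change -0.31, SE 0.113, limma adjusted p = 0.10). Scap was separated too (2166, 2166 and 1944 against 1773, 1870.3 and 1715; log2 fold change -0.23, limma adjusted p = 0.199). For Srebf2 and Scap shControl 3 was the lowest control. Both passed when shControl 3 was left out and when the length trend was removed, with limma adjusted p-values of 0.0112 and 0.0337 in the second case. Srebf1, whose product SREBP1 favours fatty acid synthesis and whose 1c form is an LXR target, went the other way: 4565, 5029.95 and 4594 against 5604, 5466 and 5196. Its groups were separated, with shMina53 higher, but it did not pass (log2 fold change 0.20, 95% interval -0.02 to 0.41, limma adjusted p = 0.258). Gene-level counts do not part the 1a and 1c forms of Srebf1.

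The letters TCACNCCA, a shorter form of the sterol element searched after the longer one, were present for Hmgcs1, Msmo1 and Srebf2, against 4.2% of all genes. The stretch before Srebf2 is shown with this form and its ATTGG in capitals, trimmed where annotated exons begin, so it ends 89 bases before the RefSeq start.
Srebf2 (chr15:82147019-82147180, plus strand): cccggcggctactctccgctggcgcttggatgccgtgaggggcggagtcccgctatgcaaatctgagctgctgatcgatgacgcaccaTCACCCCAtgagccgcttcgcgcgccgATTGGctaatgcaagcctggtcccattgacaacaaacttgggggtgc
The short element lies 162 to 155 bases before the RefSeq start and the ATTGG match 135 to 131.

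Of the 3 genes of transport and storage, only Stard4 passed. Stard4, on chromosome 18 (33199355 to 33213862, minus strand), encodes a soluble carrier that moves cholesterol between membranes and is an SREBP2 target. It fell from 2116, 1732 and 2069 scaled counts to 1417, 1369 and 1311, with no overlap (log2 fold change -0.52, SE 0.111, limma adjusted p = 0.00835). Npc1, which lets cholesterol out of lysosomes, overlapped between groups (2773, 2549 and 1839 against 2661, 2779.6 and 2678; log2 fold change 0.20, limma adjusted p = 0.386). Its one low library was shControl 3, without which the fold change was 0.025. With the length trend removed it was 0.058. Soat1, which esterifies cholesterol for storage, overlapped as well (2763, 3029 and 2860.5 against 2883, 3419.97 and 3244; log2 fold change 0.14, limma adjusted p = 0.472).

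Among the LXR genes, Abca1 was the one that rose. Abca1, on chromosome 4 (53030787 to 53159895, minus strand), encodes the pump that loads cholesterol and phospholipid onto apolipoproteins. It was at 4149, 4124 and 2654 scaled counts in shControl against 5752, 6523 and 7240.3 in shMina53. The groups did not overlap. The low control library was shControl 3, and the shMina53 mean was 178.6% of the control mean. The log2 fold change was 0.86 (SE 0.157; 95% interval 0.52 to 1.20; limma adjusted p = 0.00506; edgeR adjusted p = 0.00892). Without shControl 3 it was 0.65, and with the length trend removed it was 0.73, and it passed limma in both cases.

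The other LXR targets did not pass. Abcg1, a pump that passes cholesterol to mature HDL-like particles, was at 144, 151 and 115 scaled counts against 131, 141 and 137. The groups overlapped, with a log2 fold change of 0.01 whose 95% interval of -0.35 to 0.37 lies under that of Abca1 (limma adjusted p = 0.983). Its sign changed under 5 of the alternative settings. Mylip encodes IDOL, a ubiquitin ligase that removes lipoprotein receptors. It was low and scattered, at 22.6, 17.2 and 29.1 against 14.5, 38.4 and 24.8, so that its 95% interval of -0.69 to 0.88 reached that of Abca1 (log2 fold change 0.10, limma adjusted p = 0.910). The receptor genes themselves did not pass: Nr1h2 (LXR beta) was separated in the lower direction by under 1 scaled count (820.3, 887 and 866 against 819.8, 693 and 587; log2 fold change -0.31, limma adjusted p = 0.153). Nr1h3 (LXR alpha) was low and overlapped (58.5, 74.3 and 48.8 against 43.5, 70.6 and 48.6; log2 fold change -0.17, limma adjusted p = 0.746). Without shControl 3 the fold changes of Abcg1, Mylip and Nr1h3 were -0.11, 0.28 and -0.31.

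LXR with its partner RXR binds a direct repeat with 4 spaced bases. The general letters, GNTCA followed after any 5 bases (the 4 spaced bases and the first base of the second repeat, left free) by GNTCA, were found before no member with a promoter and before 0.807% of all genes. The letters GGTTA followed after any 5 bases by GGTCA, spelled after the element known from Abca1 itself, so that its own match follows from the choice, were found before Abca1 and Srebf1 and before 12 of 27025 genes (0.0444%). The 2 upstream sequences are shown because these LXR target genes were the only 2 of the 32 in which all shMina53 libraries were higher. They were thus picked by their values, and 14.9% of all genes tested were separated in that direction. Srebf1 did not pass, and a link between these letters and the changes was not tested. The repeat is in capitals as its complement on the gene's strand, and ATTGG is in capitals where present.
Abca1 (chr4:53159896-53160145, minus strand): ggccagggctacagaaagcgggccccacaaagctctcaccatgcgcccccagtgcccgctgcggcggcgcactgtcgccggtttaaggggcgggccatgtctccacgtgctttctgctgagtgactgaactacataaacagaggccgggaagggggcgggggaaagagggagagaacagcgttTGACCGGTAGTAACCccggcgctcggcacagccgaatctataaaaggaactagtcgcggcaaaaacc
Srebf1 (chr11:60210472-60210721, minus strand): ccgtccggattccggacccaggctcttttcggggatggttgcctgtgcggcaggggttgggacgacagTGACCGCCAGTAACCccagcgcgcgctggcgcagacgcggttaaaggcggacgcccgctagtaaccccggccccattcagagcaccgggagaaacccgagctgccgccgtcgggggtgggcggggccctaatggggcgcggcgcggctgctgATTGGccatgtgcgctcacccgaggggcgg
The repeat lies 67 to 53 bases before the start of Abca1 and 182 to 168 bases before this start of Srebf1, which is 1 of 3 RefSeq starts of the gene used here.

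The 21 SREBP2 targets and the 3 LXR efflux genes were set side by side. Of the SREBP2 targets 9 fell, none rose and 12 did not pass, and 15 were separated in the lower direction. Among all genes tested 4.47% passed lower and 3.79% higher, and 14.1% were separated in the lower direction. All 21 fold changes of the SREBP2 targets were negative, from -0.86 to -0.12, with a median of -0.38. With edgeR 8 fell and none rose, where edgeR called 6.48% of all its genes lower and 5.46% higher, and at an unadjusted limma p under 0.05 there were 15 lower and 0 higher, against 12.2% and 11.4% of all genes tested. Of the LXR efflux genes 1 rose and none fell (also 0 lower by edgeR and at an unadjusted limma p under 0.05), with a median of 0.10. The medians differed by -0.48, but the second rests on 3 genes with low counts in 2 of them. It was -0.016 without shMina53 2 and 0.44 without shMina53 1. Abca1 was the 1 gene of that list that passed, so the list's direction rests on it.

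The values can also be read library by library. Against each gene's mean of the 6 libraries, the median deviation of the 21 SREBP2 targets was 0.14, 0.09 and 0.34 (log2) in shControl 1, 2 and 3, against -0.06, -0.28 and -0.27 in shMina53 1, 2 and 3. Abca1 deviated by -0.21, -0.22 and -0.86 and by 0.26, 0.44 and 0.59. The library with the highest SREBP2 targets, shControl 3, had the lowest Abca1, and within shMina53 the library with the highest SREBP2 targets, shMina53 1, again had the lowest Abca1. shControl 3 was the highest of the 6 libraries for 16 of the 21 targets, and shMina53 1 the highest of its group for 16 of 21. The ratio of Abca1 to Hmgcs1 scaled counts was 0.278, 0.294 and 0.151 in shControl against 0.456, 0.585 and 0.607 in shMina53. The library with the strongest length trend was also shControl 3, and Abca1 has a long transcript. Within shMina53 the length slopes of 0.03, 0.07 and 0.10 in libraries 1, 2 and 3 rose in the same order as Abca1. The part of the length trend in these values was measured only through the fit with the trend removed. That fit kept all 11 passing genes and called 14 members lower and 1 higher, against 4.73% and 5.59% of all genes tested. It moved fold changes both ways. Those of Mvd, Pmvk, Mvk, Ebp and Nsdhl shrank to -0.45, -0.49, -0.19, -0.29 and -0.05, and those of Acat2 and Insig1 to -0.42 and -0.34. Those of Lss, Srebf2 and Scap grew to -0.65, -0.37 and -0.29.

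**Figure D3:**
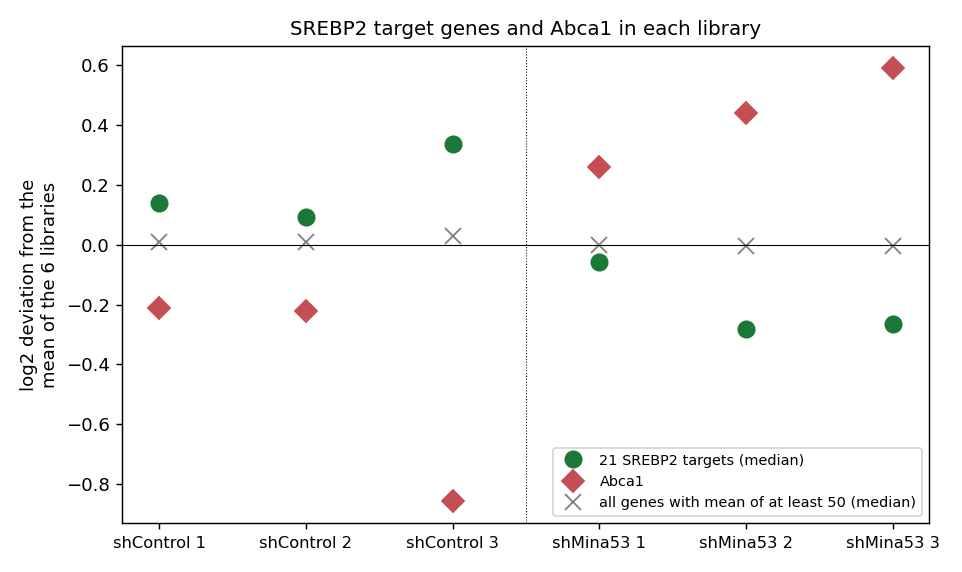
Log2 deviation from the mean of the 6 libraries (y axis) in each library (x axis) for the median of the 21 SREBP2 targets (green), Abca1 (red) and the median of all genes with a mean of at least 50 scaled counts (grey). The SREBP2 targets run from 0.34 in shControl 3 to -0.28 in shMina53 2 and Abca1 from -0.86 in shControl 3 to 0.59 in shMina53 3, while all genes stay near 0.

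Levels per kb of exon compare genes only roughly. The length joins the exons of all annotated transcripts of a gene, such as 10787 bases for Lss and 4208 for Fdps, whichever forms are expressed. On this scale Hmgcs1 led the 32 genes in shControl with 3377 scaled counts per kb. Cyp51 (1262), Insig1 (1238), Srebf2 (952) and Srebf1 (839) followed, and the neighbours Cyp51 and Insig1 differed by less than the spread between their libraries. Abca1 stood in the middle with 351 in shControl and 628 in shMina53. Abcg1 (18.7), Fdps (16.3) and Mylip (7.10) were lowest in shControl. The genes that fell were spread from Hmgcs1 down to Lss at 198.

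**Figure D4:**
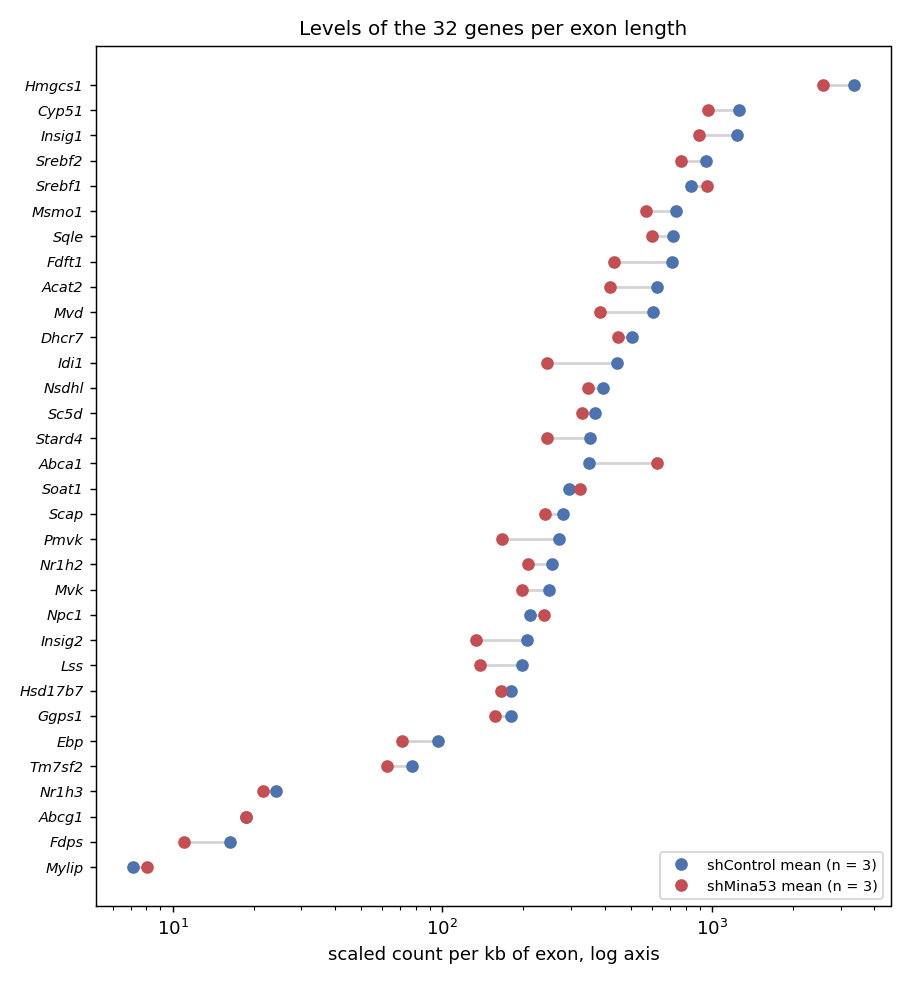
Mean level in scaled counts per kb of exon (x axis, log scale) of the 32 genes (y axis) in shControl (blue) and shMina53 (red), each a mean of 3 libraries, ordered by the shControl level. Hmgcs1 is highest at 3377 in shControl, Mylip lowest at 7.10, and Abca1 shows the widest step to the right.

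How many of the 32 passed depended on the tool, on the variance model and on the libraries used. DESeq2 kept all 11 passing genes and added Cyp51 and Msmo1 in the lower direction (DESeq2 adjusted p = 0.0199 and 0.0463), whereas edgeR lost Hmgcs1. The share of all genes that DESeq2 called is not reported here. In limma without its trend and robust steps none of the 32 passed (smallest adjusted p 0.0995). In that fit 11 were lower and 1 higher at an unadjusted p under 0.05, against 9.33% and 9.44% of all genes tested. Idi1, Fdft1 and Abca1 passed limma with any 1 of the 6 libraries left out, with adjusted p-values up to 0.0131, 0.0357 and 0.0473. Without shMina53 3 these were the only 3 that passed, 2 lower and 1 higher, where 1.28% of all genes passed lower and 1.05% higher. At an unadjusted p under 0.05, 13 were lower in that fit, against 9.4% of all genes. Without shMina53 2 there were 5 lower and without shControl 2 there were 6, against 1.73% and 1.57% of all genes. Mvd was lost only without shMina53 3 (limma adjusted p = 0.0606). Hmgcs1 was the least stable and passed in 2 of the 6 fits. Without shControl 3 the number lower was 13, with Cyp51, Scap and Srebf2 added, and the share of all genes called lower was 5.98%. All 11 passing genes kept their direction in each of these fits.

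**Figure D5:**
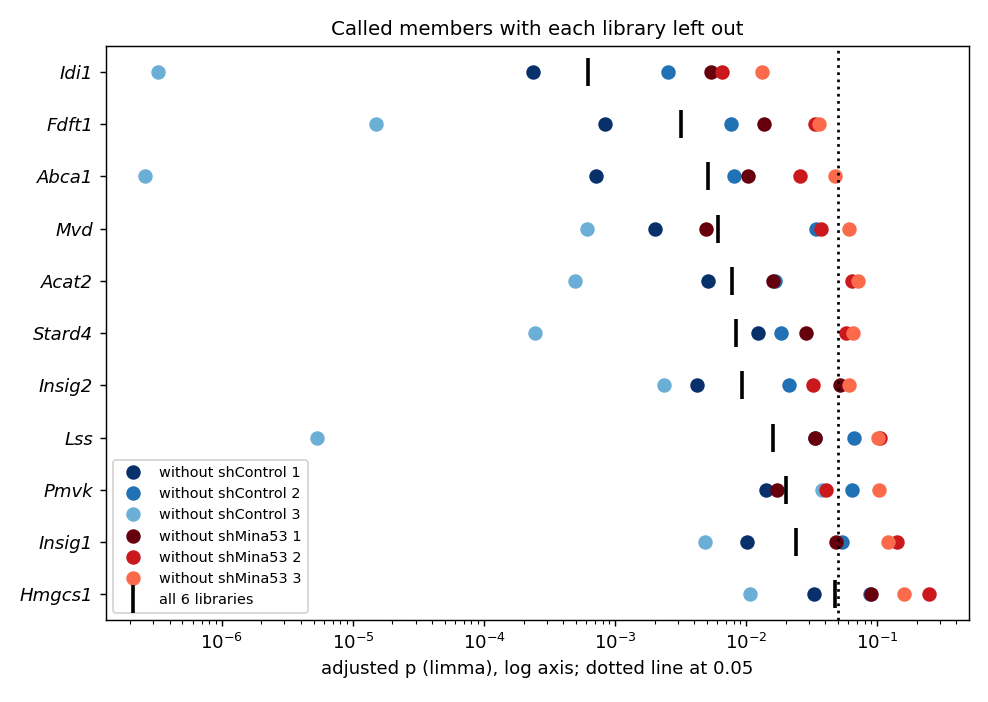
Limma adjusted p (x axis, log scale) of the 11 passing genes (y axis) with all 6 libraries (black bar) and with each library left out (points), with 0.05 as a dotted line. Idi1, Fdft1 and Abca1 stay left of the line in all 6 fits, and the points without shMina53 3 lie farthest right for most genes.

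Of 49 tested neighbouring genes of the pathway, in 6 lists, 6 fell and 3 rose, and the median log2 fold change was 0.01. Among all genes tested 4.47% passed lower and 3.79% higher. Among those with a mean of at least 50 scaled counts the shares were 7.56% and 5.74%. Without shMina53 3 the 6 lists had 0 lower and 1 higher, where 1.28% and 1.05% of all genes passed. Of 7 genes that process or degrade SREBP and its partners, 1 fell, Mbtps2, which encodes the protease of the second SREBP cut (837, 737 and 734 scaled counts against 471, 606 and 564; log2 fold change -0.50, limma adjusted p = 0.0220). Mbtps1, the gene of the first protease, did not pass (log2 fold change 0.21, and from 0.10 to 0.32 with 1 library left out). Of 12 lipogenic and further SREBP targets, 3 fell: Tmem97, a sterol-binding membrane protein gene (log2 fold change -0.59, limma adjusted p = 0.0110), Aacs, which activates acetoacetate (-0.49, limma adjusted p = 0.0147), and Acss2, which activates acetate (-0.39, limma adjusted p = 0.0382). With the length trend removed Tmem97 was at -0.30 and did not pass (limma adjusted p = 0.107), whereas Aacs and Acss2 still passed. The median of that list with the trend left in was -0.10.

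Of 11 further genes of sterol transport and uptake, Vldlr, a lipoprotein receptor gene, and Gramd1a, which carries cholesterol from the plasma membrane to the ER, fell near the threshold (log2 fold change -0.39 and -0.34, limma adjusted p = 0.0487 and 0.0491). Lipa, the lysosomal lipase that frees cholesterol from esters, rose from 262, 309.8 and 282 to 379, 372 and 446 scaled counts (log2 fold change 0.48, limma adjusted p = 0.0350). Of 7 LXR partners and further LXR targets, Abcg4, a relative of Abcg1, rose (0.50, limma adjusted p = 0.0455). Its lowest library was shControl 3, at 258 scaled counts. With 1 library left out the fold change of Abcg4 ran from 0.33 to 0.60, and it passed in 1 of 6 fits. The RXR genes Rxrb and Rxra did not pass limma (-0.38 and 0.25, limma adjusted p = 0.0591 for Rxrb). With edgeR this list had 1 lower and 0 higher. Of 8 genes of the isoprenoid branch, which uses farnesyl diphosphate for prenylation, dolichol and ubiquinone, none passed limma or edgeR, and 1 was higher at an unadjusted limma p under 0.05. Pdss1, Nus1 and Fntb had log2 fold changes of 0.32, -0.13 and -0.13. Of 4 tested genes of sterol breakdown and ester formation, Cyp7b1, an oxysterol hydroxylase gene, rose from 224, 220.2 and 237 to 383, 364 and 453 scaled counts with no overlap (log2 fold change 0.81, SE 0.136, limma adjusted p = 0.00190), and it passed with any 1 library left out. Cyp46a1, the brain cholesterol 24-hydroxylase gene, did not pass (0.34), nor did Soat2 (-0.13).

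Markers of the cell types that such a culture can hold moved in the same comparison, in which 4.47% of all genes tested passed lower and 3.79% higher. Vim, Mbp and Cldn11 are named here after their values were seen. Of 8 stem and progenitor markers, Sox2, Hes5 and Vim fell and Nr2e1 rose. Their summed level was 96946 to 118532 scaled counts in shControl and 81714 to 86738 in shMina53. Of 7 astrocyte markers 3 rose (Gja1, Aqp4 and Slc1a3) and none fell by limma or edgeR (0 also at an unadjusted limma p under 0.05), and their sum went from 60351 to 63837 in shControl up to 78758 to 79379 in shMina53. Of 11 tested oligodendrocyte lineage markers 5 fell (Sox10, Pdgfra, Gpr17, Mbp and Cldn11) and none rose by limma or edgeR (0 also at an unadjusted limma p under 0.05), while the sum of the 12 listed was 50294 to 52822 against 47839 to 57111. Of 8 neuronal markers 2 fell (Gap43 and Tubb3) and Map2 rose, with sums of 14751 to 16337 and 16353 to 17258. Map2 alone was at means of 10739 and 13856, so the sums mostly follow it. Fold changes of 7 of the 8 were negative, with a median of -0.46. With the length trend removed Map2 and Tubb3 did not pass (limma adjusted p = 0.225 and 0.216), and Gap43 did. The ependymal gene Foxj1 rose, with a list sum of 229 to 257 against 363 to 486. Endothelial, fibroblast and mural, and erythroid markers summed to at most 79.9, 541 and 19.7 in any library, and the 1 microglia and macrophage marker analysed here, Csf1r, to at most 4.77. In bulk RNA, fewer cells of a type and less RNA per cell cannot be told apart, and the part of cell type proportions in the sterol gene results was not tested.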

How the data were processed

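RNA of mouse neural stem cells was sequenced in 3 shControl and 3 shMina53 libraries. The authors deposited a table of 25996 genes with 1 signal column per library, 2 of group means and 1 p-value column. Signal values deposited by the authors are gene read counts over a library's own factor: at a tolerance of 0.01 reads, whole reads were recovered for 100% of values, 13753857 to 16811085 per library. The deposited p-value comes with no named test and equalled a DESeq2 Wald p on these reads (Spearman 1 over genes). Build mm10 and, without roles, HISAT2 2.0.4, StringTie 1.3.4d, UMI-tools, CASAVA, edgeR and DESeq2 appear in the submitters' processing notes. Whether reads were deduplicated or counted by strand is not given in the sources used here. Where 15 symbols had several entries, the entry of highest mean was taken.

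The 32 members, the role lists, the wider lists and the marker lists were chosen with earlier results of these data known, so no list was tested. Some genes of the pathway are not analysed or not reported here. Scaled counts were tested with limma 3.58.1 in R 4.3.3 (trend and robust eBayes, two-sided) on log2(value + 1) over 21500 genes whose mean reached 1, with Benjamini-Hochberg adjustment over all of them and a threshold of 0.05. A log2 fold change on this scale understates the change of low genes. On recovered reads edgeR 4.0.16 (quasi-likelihood, 15082 genes) called 1801 genes and limma 1776, and DESeq2 1.42.0 was run too. Named genes are all members, Riox2 and up to 3 genes with the smallest adjusted p of each wider or marker list. On simulated counts of 14913 genes with 200 changed by 1 log2 unit, 85.5% of those were called, and 3.93% of calls were unchanged genes. The simulation gave every gene the same dispersion and held no length trend. All 32 members changed by less than 1 log2 unit, so these shares do not carry over to them. Exon lengths, overlaps and positions come from GENCODE on mm10. The trend of values with exon length was measured over 11377 genes and removed as an alternative. Other alternatives changed the filter, scaling, pseudocount, tool, variance model or libraries, or added the replicate block. Promoter sequences come from RefSeq (GRCm38.p6), cut where protein-coding exons are annotated.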

Additional observations from a re-analysis of the deposited data

How the results depend on the processing

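Limits come first from the variance model: limma without trend and robust steps called 32 genes in all and none of the 32 members in either direction (0 SREBP2 targets lower, 0 LXR efflux genes higher, 0 lower and 0 higher in the wider lists; smallest adjusted p of a member 0.0995), although 11 members were lower and 1 higher at an unadjusted p under 0.05 in that fit. Deviations of same-numbered libraries from their group means correlated at -0.15, 0.11 and 0.02 over 12053 genes, and those of differently numbered libraries at -0.15 to 0.08. Deviations within a group are tied to each other, so these values do not settle whether replicate numbers mark pairs. With the replicate block limma called 1178 genes, 9 members lower (Hmgcs1 lost) and 2 lower and 1 higher in the wider lists. edgeR with the replicate block, added after seeing the data, called 999 genes, 7 members and 6 SREBP2 targets lower (Hmgcs1, Insig1 and Pmvk lost) and 2 lower and 1 higher in the wider lists. With the length trend removed the wider lists had 5 higher, and all 11 member calls were kept. With 1 library left out, members called lower ranged from 2 to 13, members higher from 1 to 1, SREBP2 targets lower from 2 to 10, all genes called from 497 to 2794, wider lists lower from 0 to 10 and wider lists higher from 1 to 4. The median log2 fold change ranged from -0.46 to -0.31 for SREBP2 targets and from -0.016 (without shMina53 2, reversed in sign) to 0.44 for LXR efflux genes, and their difference from -0.91 to -0.33. Signs changed among members only for Mylip and Abcg1, which never passed.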

Other observations

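The letters GGTTA followed after any 5 bases by GGTCA, spelled after the element of Abca1, were found before 12 of 27025 genes in the RefSeq promoter table, and 7 of these 12 were tested. Besides Abca1, Prrg4, which encodes a transmembrane Gla protein, passed in the higher direction: the shControl mean was 25.9 and the shMina53 mean 73.2 scaled counts (log2 fold change 1.61 on the log2(scaled count + 1) scale, limma adjusted p = 0.00903). Prrg4 was named after its values were seen, and the match of Abca1 follows from the choice of letters. Among all genes tested 3.79% passed in the higher direction. A link between the letters and the changes was not tested. The other 5, Acsl3, Fasn, Srebf1, Tmco4 and Tmem150c, did not pass, with log2 fold changes of -0.21, 0.18, 0.20, -0.05 and -0.67. Fasn, the fatty acid synthase gene and a target of both LXR and SREBP1, was at means of 11896 and 13232 scaled counts (limma adjusted p = 0.50).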
